A study of Laetiporus sulphureus with 6 samples.

Results

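The AA1 multicopper oxidases of the brown-rot fungus *Laetiporus sulphureus* ATCC 52600 comprise 6 predicted genes, which were taken by gene number from the annotation of CAZymes in the study's list of wood-decay genes. They are the AA1_1 laccases g6686, g6683 and g8610, the AA1_2 ferroxidase g7795, and the AA1_3 laccase-like multicopper oxidases g6518 and g6517. All 6 were among the 10015 genes of the count table. RNA was sequenced from whole mycelium of 3 pre-inoculum cultures (T0), grown from 15 agar discs for 7 days in 100 mL of liquid medium at 30 °C and 180 rpm, and of 3 cultures in which such mycelium was washed and moved for 24 h to a mineral medium with 1 g of untreated (in natura) sugarcane bagasse (BIN). All cultures were of the same strain, and the 3 cultures of a group are biological replicates by the study's design. Fresh medium, bagasse and a further 24 h of culture came together, and no culture moved without bagasse was analysed here. The effects of transfer, of substrate and of time therefore cannot be told apart. By the paper's methods, the BIN mycelium was also collected in mixture with the bagasse. In RNA from whole mycelium, less transcript in every hypha and fewer hyphae that carry it cannot be told apart either.

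Multicopper oxidases carry a cluster of copper ions with which they take electrons from a substrate and pass them to oxygen, which is reduced to water. Laccases in the strict sense oxidise phenols, among them hydroquinones and lignin fragments. Ferroxidases oxidise ferrous to ferric iron, and in *Saccharomyces cerevisiae* the ferroxidase Fet3 works at the cell surface together with an iron permease in high-affinity iron uptake. In brown rot, phenols and iron are both parts of the extracellular Fenton chemistry, in which ferrous iron and hydrogen peroxide give hydroxyl radicals that attack the plant cell wall.

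The 6 genes fell into 3 patterns between T0 and BIN. The ferroxidase g7795 rose 15.6-fold and the laccase g8610 rose 2.09-fold. The laccase g6686 fell 7.18-fold. Its paralog g6683 was 8.46-fold lower but was very uneven among the T0 libraries and did not pass the test. Without T0 replicate 1 its log2 fold change was -1.53. The AA1_3 genes g6517 and g6518 had log2 fold changes of -0.23 and -0.24 and were not called. Levels are library-scaled counts (CPM, with edgeR's TMM factors), and the test was edgeR's quasi-likelihood test over all 10015 genes with Benjamini-Hochberg adjustment. Calls required an adjusted p no larger than 0.05 together with a log2 fold change of 1 or more in size. By this rule 3 of the 6 genes were called, against 25.9% of all genes. Of these, 2 were higher, against 11.3% of all genes, and 1 was lower, against 14.5%. Over all genes the median log2 fold change was 0.00, and 43.8% of all calls were higher. Scaling by library size alone gave 54.8% higher around a median of 0.13, and limma on log2(TPM + 1) gave 74.5% higher around a median of 0.40. The calls of the 6 genes were the same on all these scales.

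The libraries held between 9541028 and 15331728 counts. Correlations of log2 CPM over genes were 0.993 to 0.995 among BIN libraries and 0.98 to 0.992 among T0 libraries, and the median SD of log2 CPM was 0.097 in BIN and 0.149 in T0, so T0 libraries were the more uneven group. The 6 genes were measured with 144 to 7418 counts per library. Coding lengths, recovered from the ratio of counts to TPM, were 1533 bases for g6686, 1389 for g6683, 1416 for g8610, 1899 for g7795, 1398 for g6518 and 1467 for g6517. The ferroxidase gene was thus the longest. The program that counted reads is not given in the sources used here, so reads may have been shared between paralogs where these are nearly identical.

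**Figure D1:**
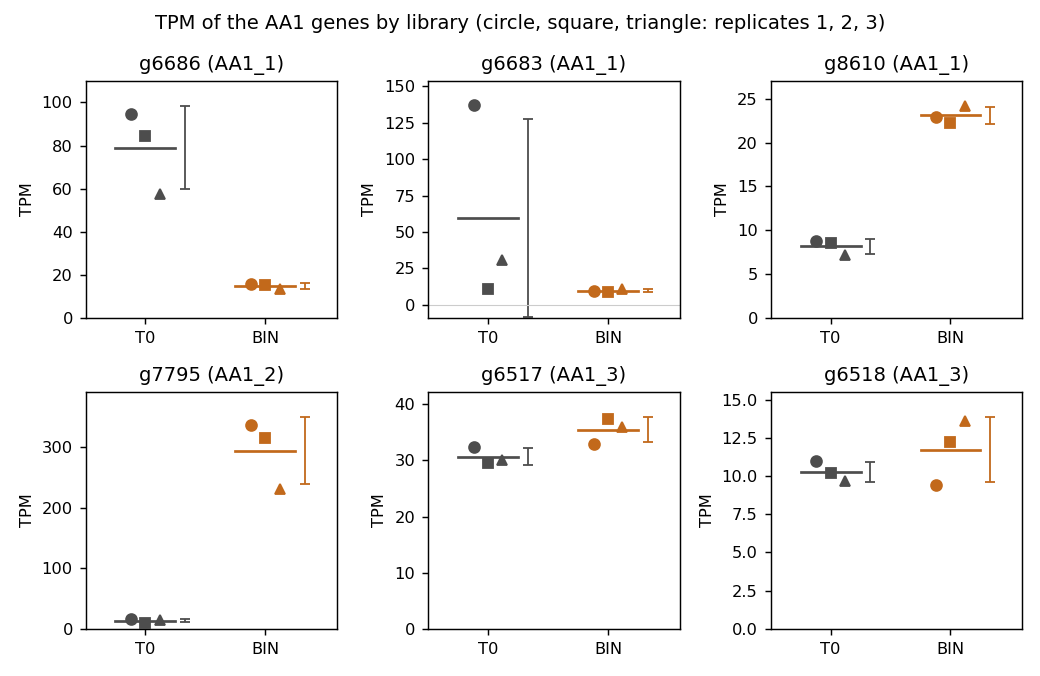
TPM of each AA1 gene (vertical axes, a separate scale per gene) in the T0 and BIN libraries, with the group mean as a line and the SD of 3 libraries as a bar. The BIN libraries of g7795 lay at 231.1 to 335.6 TPM against 10.5 to 16.1 in T0, and T0 replicate 1 of g6683 stood alone at 137.1 TPM.

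Among the laccases, g6686 was measured at 199.4, 153.0 and 118.3 CPM in T0 replicates 1, 2 and 3 and at 23.4, 22.2 and 19.8 CPM in BIN replicates 1, 2 and 3. Every T0 library lay above every BIN library, with a wide gap between the groups. The mean was 156.9 ± 40.7 CPM in T0 and 21.8 ± 1.86 CPM in BIN (SD, n = 3). On the log2 scale the change was -2.84 with a standard error of 0.19 (edgeR adjusted p = 4.61e-06), which ranked 161 from the bottom among 10015 genes.

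The paralog g6683 was measured at 261.6, 17.6 and 57.6 CPM in T0 replicates 1, 2 and 3. In BIN it was at 13.0, 11.4 and 14.9 CPM. The BIN libraries were close together, whereas T0 replicate 2 lay barely above them and T0 replicate 1 lay 14.9-fold above T0 replicate 2. The SD of log2 CPM over the T0 libraries was 1.95, which ranked 7 from the highest among 10015 genes, against 0.19 in BIN. The log2 fold change, -3.08, had a standard error of 1.15 and did not pass the test (edgeR adjusted p = 0.068). This verdict turned on the T0 libraries and on the tool. Without T0 replicate 1 the log2 fold change was -1.53 and was called lower (edgeR adjusted p = 0.0489), without T0 replicate 2 it was -3.59 and was called (edgeR adjusted p = 0.0309), and DESeq2 called it as well, at -3.10 (DESeq2 adjusted p = 0.00349). Over all alternatives, in edgeR, limma and DESeq2, the adjusted p ranged from 0.00349 to 0.306. On the TPM scale T0 replicate 2, at 10.7, fell within the BIN range of 8.71 to 11.1.

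An SD of log2 CPM of at least 1 over the T0 libraries was found for 29 genes, and g6683 was the AA1 member among them. Of these 29 genes, 15 were highest in T0 replicate 1 and 14 in T0 replicate 2, so that g6683 belonged to the set whose peak was in replicate 1. The profiles nearest to that of g6683, by the root mean square distance of log2 CPM centred over the 6 libraries, were those of g4996 (distance 0.41) and g4994 (0.42), which carry neighbouring numbers of their own. The gene g4996 was at 350.3, 47.9 and 66.7 CPM in T0 and at 19.5 to 27.8 CPM in BIN. The gene g4994 was at 95.4, 7.61 and 11.1 CPM in T0 and at 3.47 to 5.63 CPM in BIN. Both peaked in T0 replicate 1, as g6683 did, and neither was called. For g6686 the nearest profiles were those of g7205 (distance 0.11) and g5139 (0.16), with log2 fold changes of -2.74 and -2.69. None of these genes is annotated in the list of wood-decay genes.

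The laccase g8610 moved in the other direction. It was measured at 17.1, 14.3 and 13.7 CPM in T0 and at 31.2, 29.6 and 32.95 CPM in BIN, without overlap. The log2 fold change was 1.07 (standard error 0.11, edgeR adjusted p = 3.14e-05), just past the threshold of 1. It was not called by glmTreat, which tests whether the change exceeds that threshold (adjusted p = 0.508), and was called under each of the other 15 alternatives, with adjusted p from 2.39e-13 (DESeq2) to 0.000316 (edgeR). It was the weakest laccase of the T0 cultures and the strongest of the BIN cultures, at 8.18 ± 0.854 TPM and 23.1 ± 0.945 TPM (SD, n = 3). The nearest profiles were those of g5683 (distance 0.053), with a log2 fold change of 1.08, and g8298 (0.055), with 1.02. A signal peptide is annotated for g8610 and for g7795 in the study's tables but not for g6686 or g6683.

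The ferroxidase g7795 was measured at 41.9, 23.5 and 37.1 CPM in T0 and at 613.8, 560.0 and 423.6 CPM in BIN. The lowest BIN library stood far above the highest T0 library, and the mean rose from 34.2 ± 9.53 to 532.5 ± 98.1 CPM (SD, n = 3). The log2 fold change was 3.97 (standard error 0.24, edgeR adjusted p = 3.17e-06), which ranked 49 from the top among 10015 genes. Leaving out any single library kept it between 3.75 and 4.12.

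The gene whose profile was nearest to that of g7795 among all other genes was g7797, which follows it by number with g7796, absent from the table, between them. The gene g7797 was measured at 49.4, 24.95 and 47.2 CPM in T0 and at 642.4, 657.7 and 513.5 CPM in BIN. It shared the dip of g7795 in T0 replicate 2 and the lowest BIN value in replicate 3, at a profile distance of 0.10. Since g7797 was picked as nearest over these same values, such a match follows from the choice. Its log2 fold change was 3.90 (standard error 0.27, edgeR adjusted p = 7.26e-06), close to that of g7795. No function is annotated for g7797 in the sources used here. The second nearest profile was that of g1297 (distance 0.12), with a log2 fold change of 3.86 and no annotation. It too was lowest in replicate 2 of T0, at 12.2 CPM, and in replicate 3 of BIN, at 202.8 CPM.

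The AA1_3 genes g6517 and g6518 carry adjacent numbers and moved least. The gene g6517 was measured at 65.3, 51.2 and 58.9 CPM in T0 and at 46.6, 51.5 and 50.9 CPM in BIN, and the groups overlapped. Its log2 fold change was -0.23 (standard error 0.10, edgeR adjusted p = 0.0633). The gene g6518 was measured at 21.1, 16.8 and 18.1 CPM in T0 and at 12.7, 16.0 and 18.3 CPM in BIN, again with overlap, and its log2 fold change was -0.24 (standard error 0.15, edgeR adjusted p = 0.185). The direction depended on the scale. On log2(TPM + 1) values, on which the median of all genes was 0.40, both were slightly higher in BIN, at 0.20 for g6517 and 0.16 for g6518, and neither was called. The TPM of g6517 was 29.6 to 32.4 in T0 and 32.97 to 37.4 in BIN, close but without overlap. The groups thus overlapped in 2 of the 6 members on the CPM scale, and the other 4 did not overlap, against 75.6% of all genes without overlap.

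**Figure D2:**
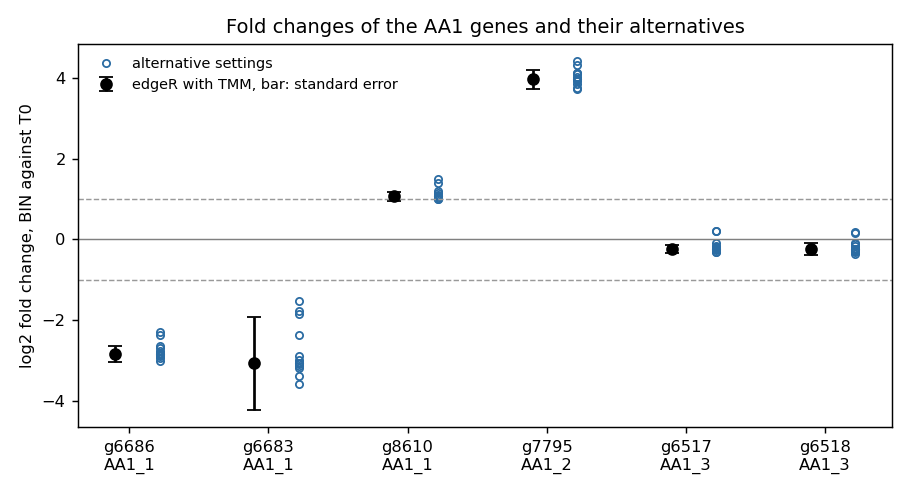
Log2 fold changes of BIN against T0 (vertical axis) for the 6 genes, with the edgeR value and its standard error in black and each alternative setting as an open circle; dashed lines mark the threshold of 1. The circles of g6683 spread from -3.59 to -1.53, those of g7795 from 3.73 to 4.41.

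Levels were compared between genes per length, as TPM. In T0 the order of mean TPM was g6686 (79.0 ± 19.1), g6683 (59.6 ± 67.9), g6517 (30.7 ± 1.51), g7795 (13.7 ± 2.88), g6518 (10.3 ± 0.656) and g8610 (8.18 ± 0.854; SD, n = 3). The ranges over libraries overlapped between g6686 and g6683, between g6683 and g6517, and between g7795 and g6518, so these neighbours were not separated beyond their spread. In BIN the order was g7795 (293.7 ± 55.2), g6517 (35.4 ± 2.25), g8610 (23.1 ± 0.945), g6686 (14.9 ± 1.34), g6518 (11.7 ± 2.13) and g6683 (9.83 ± 1.19; SD, n = 3). There the first 4 genes were separate from each other in all libraries, and the ranges overlapped between g6686 and g6518 and between g6518 and g6683.

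The make-up of the family was therefore different in the 2 conditions. The summed TPM of the 6 genes was 300.0, 154.1 and 150.2 in T0 replicates 1, 2 and 3 and 426.5, 410.3 and 329.2 in BIN. The 3 AA1_1 laccases made up 80.2%, 67.4% and 63.8% of that sum in T0 and 11.4%, 11.3% and 14.7% in BIN. The ferroxidase g7795 made up 5.36%, 6.82% and 9.74% in T0 and 78.7%, 76.6% and 70.2% in BIN. Such shares do not depend on how the libraries were scaled, and the groups did not overlap for either. The summed TPM of the laccases alone was 240.6, 103.8 and 95.9 in T0 and 48.5, 46.4 and 48.5 in BIN, in spite of the rise of g8610. The AA1_3 pair summed to 43.4, 39.7 and 39.7 TPM in T0 and to 42.4, 49.6 and 49.5 TPM in BIN. Unlike the shares, these sums depend on the scale. On log2(TPM + 1) values the median gene was higher in BIN by 0.40. In mean CPM both AA1_3 genes were lower in BIN, at 49.7 against 58.4 for g6517 and 15.7 against 18.6 for g6518. The higher TPM sums of the family and of the AA1_3 pair in BIN therefore do not show a rise on the CPM scale.

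**Figure D3:**
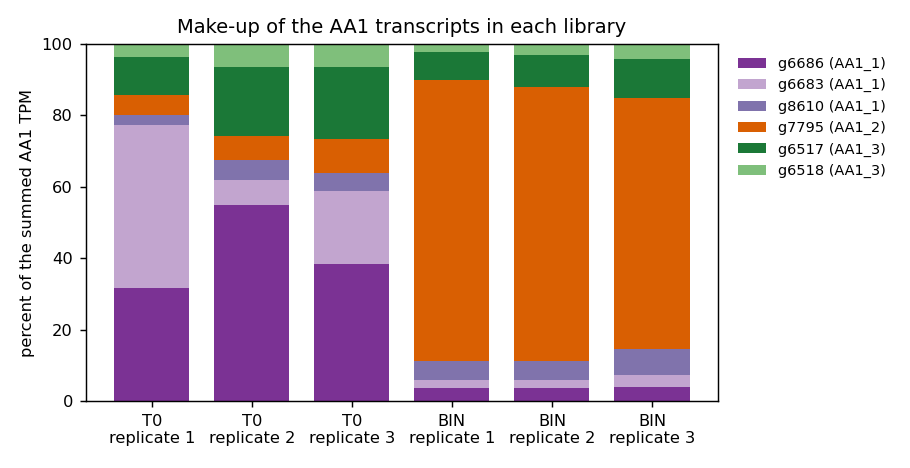
Percent of the summed AA1 TPM (vertical axis) taken by each gene in each library. Laccases of AA1_1 (purple shades) took 63.8% to 80.2% in T0, and the ferroxidase g7795 (orange) took 70.2% to 78.7% in BIN.

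Paralogs were then contrasted by their ratio of TPM within each library, which is independent of library scaling. The difference between 2 genes in their log2 fold changes is given with a 95% interval, and 15 pairs were compared. Here a log2 fold change is the difference between the group means of log2 TPM. Where libraries were uneven, as for g6683 in T0, it departs from the edgeR value, which is fitted to counts. The interval comes from the spread of the 6 ratios about their group means, pooled over T0 and BIN. It takes that spread as equal in both groups, which did not hold for the ratios with g6683. The exact permutation test over libraries cannot give a p below 0.1 with 3 against 3 libraries, so no pair could reach 0.05. The ratios did not overlap between T0 and BIN in 13 of the 15 pairs (two-sided exact permutation test, p = 0.1 for each). The interval excluded 0 in 11 of them. The 15 pairs share 6 genes, so they are not separate results, and the intervals are not adjusted for their number. The share over pairs of all genes was not computed, and 75.6% of single genes did not overlap in CPM.

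Within AA1_1, g6686 and g8610 changed places. The TPM of g6686 was 10.8, 9.87 and 8.00 times that of g8610 in T0 replicates 1, 2 and 3, and 0.693, 0.695 and 0.554 times in BIN. The difference in log2 fold change was -3.88 (95% interval -4.34 to -3.42). Leaving out single libraries moved it within -4.00 to -3.77.

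The ratio of g6686 to g6683 was uneven in T0, at 0.691, 7.90 and 1.86, and even in BIN, at 1.63, 1.77 and 1.21. The edgeR log2 fold change was lower for g6683, at -3.08, than for g6686, at -2.84. By mean log2 TPM, their log2 fold changes differed by -0.51, with g6686 the lower (95% interval -3.38 to 2.36; two-sided exact permutation test, p = 0.7). An interval this wide leaves room for a large difference in either direction, and without T0 replicate 2 the difference was 0.42. Both genes were below g8610 in every BIN library and above it in every T0 library. For g6683 the ratio to g8610 was 15.6, 1.25 and 4.30 in T0 and 0.425, 0.391 and 0.459 in BIN, a difference in log2 fold change of -3.37 (95% interval -6.29 to -0.44). The interval included 0 when T0 replicate 3 or any BIN library was left out, with differences of -3.43 to -3.31. The T0 ratios were far more uneven than the BIN ratios, so the pooled interval is no firm ground for excluding 0.

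The AA1_3 pair kept its proportion most closely. The TPM of g6518 was 0.339, 0.344 and 0.322 times that of g6517 in T0 and 0.285, 0.326 and 0.378 times in BIN. The difference in log2 fold change was -0.03 (95% interval -0.37 to 0.30; two-sided exact permutation test, p = 0.8). The interval bounds the difference at well under the threshold of 1 but does not show that the genes acted alike. The profile of g6518 was 0.12 from that of g6517, which ranked 42 among the genes nearest to g6518, whereas g6518 ranked 449 among those nearest to g6517. The nearest profiles were those of g8644 (distance 0.043) and g10448 (0.061) for g6518, and of g7687 (0.037) and g7814 (0.038) for g6517. Across subfamilies, the widest contrast was that of g6686 with g7795, whose log2 fold changes differed by -6.80 (95% interval -7.67 to -5.94). The ferroxidase g7795 exceeded g6517 by 10.2, 8.40 and 6.43 times in BIN and lay at 0.496, 0.355 and 0.487 times g6517 in T0, a difference in log2 fold change of 4.21 (95% interval 3.53 to 4.90).

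**Figure D4:**
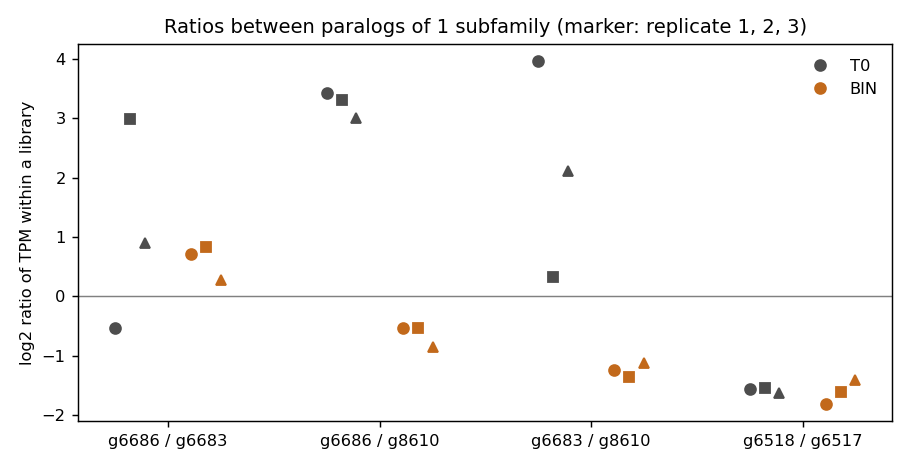
Log2 ratio of TPM within each library (vertical axis) for the 4 pairs of paralogs of 1 subfamily, T0 in grey and BIN in orange. The ratio of g6686 to g8610 crossed 0 from 3.00 to 3.43 in T0 to -0.85 to -0.53 in BIN, while that of g6518 to g6517 stayed between -1.81 and -1.41.

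Gene numbers were taken to run along the scaffolds of the authors' assembly, whose borders are not known here. The genes within 3 numbers of each member were examined. Without positions, genes are called neighbours, or said to lie between others, by number alone. Of the 24 such genes in the table that are not AA1 members, 6 were called higher and 2 lower, where 11.3% of all genes were called higher and 14.5% lower. Between the laccases g6683 and g6686 lie g6684, at -0.34 on the log2 scale (standard error 0.09), and g6685, which rose by 1.06 (standard error 0.14, edgeR adjusted p = 0.00013). Neither followed the fall of g6686. Next to g6683, the GT2 glycosyltransferase g6682 had a log2 fold change of 0.75 and was not called, and g6681 was called lower, at -1.11 (standard error 0.16). Near g8610, the alcohol dehydrogenase g8607 rose by 2.40 (standard error 0.10, edgeR adjusted p = 8.05e-08) and g8613 was called lower, at -1.35 (standard error 0.07).

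Around the ferroxidase, the AA7 gene g7793 was called higher as well, from 17.9 CPM in T0 to 90.6 CPM in BIN (log2 fold change 2.33, standard error 0.08, edgeR adjusted p = 5.03e-08). AA7 enzymes are flavin oxidases of oligosaccharides. The gene g7794, which stands between the AA7 gene and the ferroxidase, was not called, at 0.05 on the log2 scale (standard error 0.09). The gene g7798, at 0.20, was not called either. Along this stretch, called genes alternated with numbers that were not called or are absent from the table.

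Next to the AA1_3 pair stands g6519, which is listed among the redox genes with the Pfam domain of the C-terminal part of multicopper oxidases, whereas the 6 members are listed with the domain of the N-terminal part. Its coding length was 381 bases. It was measured at 13.4, 13.4 and 15.8 CPM in T0 and at 6.12, 7.96 and 7.46 CPM in BIN, without overlap. The log2 fold change was -0.99 (standard error 0.14, edgeR adjusted p = 0.00021), just short of the threshold. Without T0 replicate 1 or 2 or without BIN replicate 2 or 3 it was called lower, at -1.06 to -1.01. With a trend on gene length removed it was -0.59. Per length, g6519 stood at 25.7, 29.8 and 31.0 TPM in T0 and 16.7, 22.3 and 20.3 TPM in BIN, between g6518 and g6517 in most libraries and just above g6517 in T0 replicates 2 and 3. Further along, g6520 rose by 2.75 (standard error 0.12, edgeR adjusted p = 1.24e-07) and the GT2 gene g6521 by 1.27 (standard error 0.12).

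**Figure D5:**
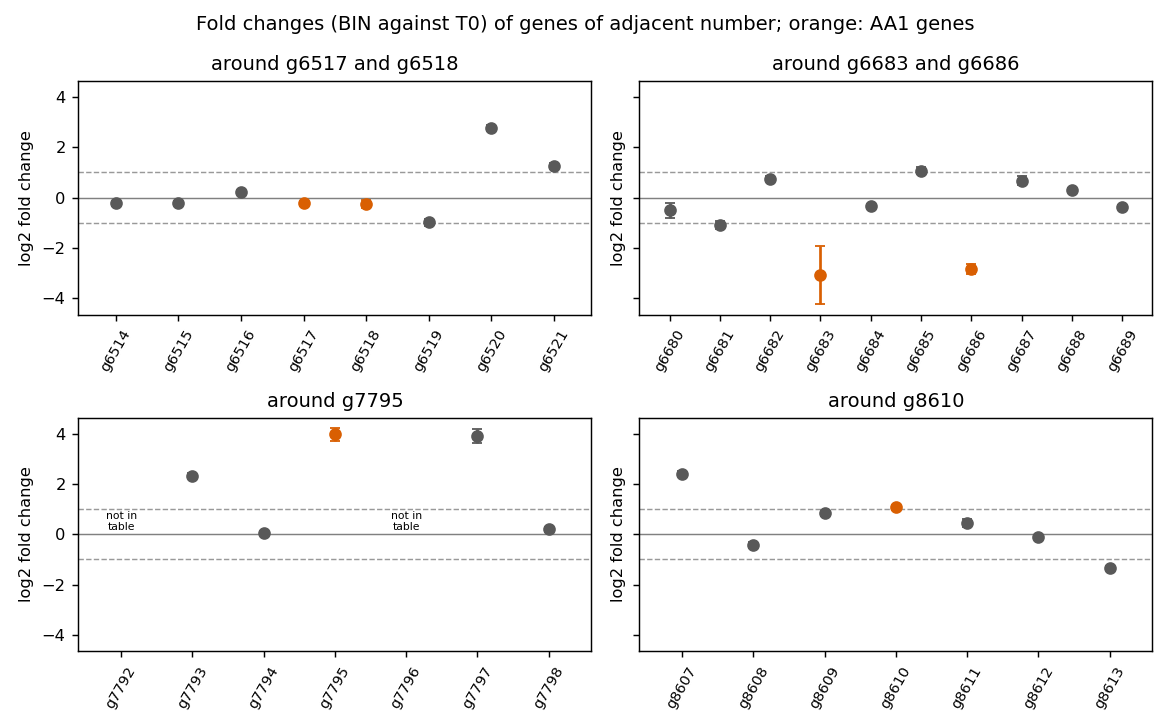
Log2 fold changes of BIN against T0 with standard errors (vertical axis) for the genes within 3 numbers of each AA1 gene, in order of gene number (horizontal axis). The values of g7795 and g7797 stand together at 3.97 and 3.90, while the genes between g6683 and g6686 lie apart from both laccases.

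The other genes of the oxidative system were read from the same list of wood-decay genes. Of 45 other AA genes 44 were tested, of which 7 were called higher and 13 lower, with a median log2 fold change of -0.18. Over all genes 11.3% were called higher and 14.5% lower, around a median of 0.00, and the counts of the lists that follow are to be read against these shares. The AA3_2 family of aryl alcohol and glucose oxidases held 25 of the 44 genes, of which 11 were lower, none was higher and 14 were not called, with a median log2 fold change of -0.49. The largest fall in it was that of g11629, at -4.46 (standard error 0.45). The largest rise among the other AA genes was that of the AA3_3 alcohol oxidase g10793, at 6.26 (standard error 0.77). The size of this rise is uncertain, since g10793 had only 15, 30 and 21 counts in the T0 libraries. In BIN it was uneven, at 72.3, 87.0 and 249.1 CPM in replicates 1, 2 and 3. The largest fall in AA7 was that of g9758, at -2.80 (standard error 0.29). Further copper enzymes were the AA9 and AA14 lytic polysaccharide monooxygenases and the AA5_1 glyoxal oxidases, which supply hydrogen peroxide. Of these 7 genes 3 were higher and 1 was lower. They were the AA5_1 gene g8037, at 1.21 (standard error 0.16), the AA9 gene g4622, at 1.75 (standard error 0.27), and the AA14 genes g2453 and g2443, at 1.76 (standard error 0.22) and -1.05 (standard error 0.09). The AA6 quinone reductase g3022, of an enzyme class that returns quinones to hydroquinones, rose by 3.91 (standard error 0.19, edgeR adjusted p = 2.3e-07), a log2 fold change near that of g7795.

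The only other gene listed as ferroxidase, g4311, carries the Pfam domain of frataxin, a mitochondrial iron-binding protein, and is unrelated to multicopper oxidases. It was measured at 45.0 to 50.9 CPM in T0 and at 41.6 to 42.1 CPM in BIN and was not called (log2 fold change -0.19, standard error 0.08, edgeR adjusted p = 0.0502). Of 9 genes of low-molecular-weight metabolism 3 were higher and 2 lower, with a median log2 fold change of 0.82, the largest rise being that of g10071, listed as hydroquinone dehalogenase, at 3.48 (standard error 0.11), and the largest fall that of g1050, listed under the same name, at -1.44 (standard error 0.19). Of 4 catalases, which break down hydrogen peroxide, g9489 was higher, at 1.61 (standard error 0.33), and g6487 lower, at -1.30 (standard error 0.15), around a median of 0.39. None of 11 peroxidases outside the AA families was higher and 2 were lower, with g7863 at -1.61 (standard error 0.15), although the median log2 fold change of the 11 was 0.38. Neither AA2 peroxidase was called.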

How the data were processed

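The authors filtered reads with Trimmomatic 0.32, removed rRNA with SortMeRNA, and mapped with TopHat2 against a genome they had assembled. They deposited unnormalised counts for each predicted gene and a second table of TPM. The program that counted reads is not given in the sources used here. Each gene in the tables reached 1 CPM in every library, the lowest value being 1.01 CPM. TPM proved to be counts divided by a whole-number length, which was a multiple of 3 for 9942 of 10015 genes and is called coding length here. Counts were tested with edgeR 4.0.16 under R 4.3.3 (TMM, filterByExpr, which kept all genes, robust glmQLFit and glmQLFTest, no replicate block), with DESeq2 1.42.0 and limma 3.58.1 as alternatives. The standard error is the log2 fold change divided by the square root of F. When tested on simulated data in which 200 of 10015 genes had been changed, the edgeR step recovered 100% and called 1 unchanged gene. All planted changes were well beyond the threshold, and every gene was given the same relative spread. The simulation therefore does not cover a change near the threshold, as in g8610, or libraries as uneven as those of g6683 in T0.

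For ratios between paralogs, a limma fit over all ratios to 1 member had been planned. All ratios to a member share that member's noise, and the prior degrees of freedom came out infinite for 4 of the 6 references, so its p-values were not used. Intervals were taken from each ratio's own residual spread instead, a choice made after the data were seen. Members, gene lists and tests were chosen with earlier results of these data known. The genes named are the members, g6519, g4311, the 2 nearest profiles to each member, called genes within 3 numbers, and the largest called rise and fall of each list. The neighbours g6682, g6684, g7794 and g7798, which were not called, fall outside this rule and were chosen after their values were seen. The supplementary tables' fold changes were not used. None of the members matched the reference list of 13840 genes of strain 93-53, so no positions or sequences are given.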

Additional observations from a re-analysis of the deposited data

How the results depend on the processing

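Of the 16 alternatives for the calls, g7795 was called higher and g6686 lower in all, and g8610 was called higher in 15. Since filterByExpr kept all genes, the alternative with no filter repeated the main fit by construction. The filter on a mean of 1 TPM left 10010 genes and was nearly the same fit. With glmTreat 1 AA1 gene was called higher, where 737 of all 10015 genes were. With DESeq2 2 were called lower, against 14.7% of all genes. Leaving out single libraries gave 1 to 2 lower and 2 higher. Over all 10015 genes those fits gave 1412 to 1549 lower and 1095 to 1201 higher. With limma on TPM, the sign turned for g6518 (0.16 with a pseudocount of 1 and 0.17 with 0.1) and for g6517 (0.20 and 0.21). Among the paralog contrasts, the replicate block left the difference of g6683 and g8610 at -3.37, with an interval of -7.76 to 1.02 that included 0. Leaving out each library gave -1.34 to 0.42 for g6686 minus g6683, -4.27 to -2.45 for g6683 minus g8610, -2.91 to -1.12 for g6683 minus g6518, -2.92 to -1.15 for g6683 minus g6517 and -0.14 to 0.068 for g6518 minus g6517. Without T0 replicate 2 the intervals of g6683 minus g6518 and minus g6517 excluded 0. The cause was not tested. Taking the other gene as reference changed nothing by construction, and the remaining alternatives for the contrasts kept direction and side. The counts of other AA, peroxidase, catalase, ferroxidase and low-molecular-weight genes stayed within 1.5 times under library size alone, DESeq2 and the length trend.

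No pairing by replicate number was seen over all genes, where deviations of same-numbered libraries from their group means correlated at 0.035, 0.0088 and -0.10. These values cannot show whether same-numbered cultures came from the same pre-inoculum. With the replicate block 1146 of all genes were called higher and 1441 lower, and the AA1 calls were the same. The value of g6683 was then -2.37. With 3 libraries a group, the uneven T0 level of g6683 sets the limit on what can be said of it.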
